A study of Homo sapiens with 12 samples.

Results

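The 9 genes described are known targets of the transcription factor p53: MDM2, PPM1D, FAS, TNFRSF10B, XPC, DDB2, GADD45A, TP53I3 and SESN1. They were chosen by name, with earlier results of these data known. Every probe set whose annotation names one of them was taken, which gave 18 probe sets of the 22277 in the table. All 9 genes were measured, MDM2 by 5 probe sets, FAS by 4, TNFRSF10B by 3 and each of the others by 1. RNA came from K562, a human cell line from a chronic myeloid leukaemia that carries the BCR-ABL1 fusion kinase. Each of 3 groups had 4 Affymetrix arrays after 24 h of culture. The groups received imatinib (STI571) at 0.5 µM, nilotinib (AMN107) at 0.05 µM, or the solvent DMSO. Imatinib and nilotinib are structurally related inhibitors of the ABL kinase, and their doses differed. Whether the 4 arrays of a group represent independent cultures is not given by the labels, and p-values therefore reflect the spread among these arrays alone, part or all of which may be technical.

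The p53 protein binds DNA after damage or other stress and raises genes that stop division, repair DNA or start cell death. MDM2 marks p53 for destruction and PPM1D removes activating phosphates from the pathway, so both close a feedback loop. K562 cells are known to lack functional p53, and in such cells these genes stand under whatever other regulators they have. The arrays do not test that deficiency. The probe set of TP73, a p53 relative, had a mean signal of 14.7 with DMSO, 8.97 with imatinib and 19.5 with nilotinib. Probe sets such as this one are called dim from here on. Their mean of log2(signal + 16) over the 12 arrays lies under the 40th percentile, which corresponds to a signal of 80.6.

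A p53 response element consists of a pair of 10-base units. Promoter windows from RefSeq (GRCh38.p14, 250 bases before to 50 after a start) were matched for 7 of the 9 genes, with 15 windows in all, and GADD45A and TNFRSF10B were not among them. In each window the pair of units, 0 to 3 bases apart, with the fewest mismatches to the p53 consensus was sought. The consensus is its own reverse complement, so both strands are read at once. The closest element of each gene is shown, whether or not the gene was called. Capitals mark bases that match the consensus, and lower case marks mismatches and bases between the units.
DDB2: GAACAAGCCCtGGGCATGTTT
MDM2: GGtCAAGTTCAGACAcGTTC
FAS: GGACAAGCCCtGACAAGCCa
SESN1: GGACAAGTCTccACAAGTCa
XPC: GAAtTTGCCCAGACAAGCaa
TP53I3: AAGaAAaTCTgatttGCTTGCTT
PPM1D: AAGCAAaCTaGGAgATGCgC
The DDB2 element (chr11:47214979-47214999, plus strand, bases 6 to 26 after a start) had 0 mismatches, as had 0.0199% of the 35116 windows of all genes. The elements of MDM2 (chr12:68808923-68808942, plus strand) and FAS (chr10:88991309-88991328, plus strand) had 2 mismatches, and 2.67% of all windows held one with at most 2. SESN1 (chr6:109009018-109009037, minus strand) and XPC (chr3:14178570-14178589, minus strand) had 3 mismatches, and 6325 of the 35116 windows held one with at most 3. TP53I3 (chr2:24084946-24084968, minus strand) and PPM1D (chr17:60599994-60600013, plus strand) had 4, and 59.4% of all windows had at most 4. Genes with several windows had more chances of a close match. A match of letters is a description and does not show that p53 or any other factor is bound there. Sites of another form, or outside these windows, would not be found by this search.

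Both drugs changed some of these genes in the same direction and left others without a call. DDB2, TP53I3, SESN1 and GADD45A rose with each drug, TNFRSF10B fell with each, and XPC rose with nilotinib. No call was made for MDM2 and PPM1D, and FAS had a single call, by 1 of its 4 probe sets with nilotinib. By the brightest probe set of each gene, 4 of 9 genes were called higher and 1 lower with imatinib, against 13.6% and 10.8% of all 11963 genes. With nilotinib 5 of 9 were higher and 1 lower, against 30.1% and 15.4%. Over all 18 probe sets the calls were 4 higher and 1 lower with imatinib, where 11.8% and 9.15% of 19064 probe sets were called (20.9% in either direction). With nilotinib they were 6 higher and 1 lower, where 28.4% and 13.4% were called (41.8% in either direction). The share of all genes called was large, above all with nilotinib, and the counts are given beside it without a test of the list. Their median log2 difference by the brightest probe set was 0.31 with imatinib and 0.45 with nilotinib, and that of all genes was 0.13 and 0.33. Calls were made with limma at a Benjamini-Hochberg adjusted p under 0.05 over all probe sets, and all log2 values are differences of log2(signal + 16). Both comparisons use the same 4 DMSO arrays.

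**Figure D1:**
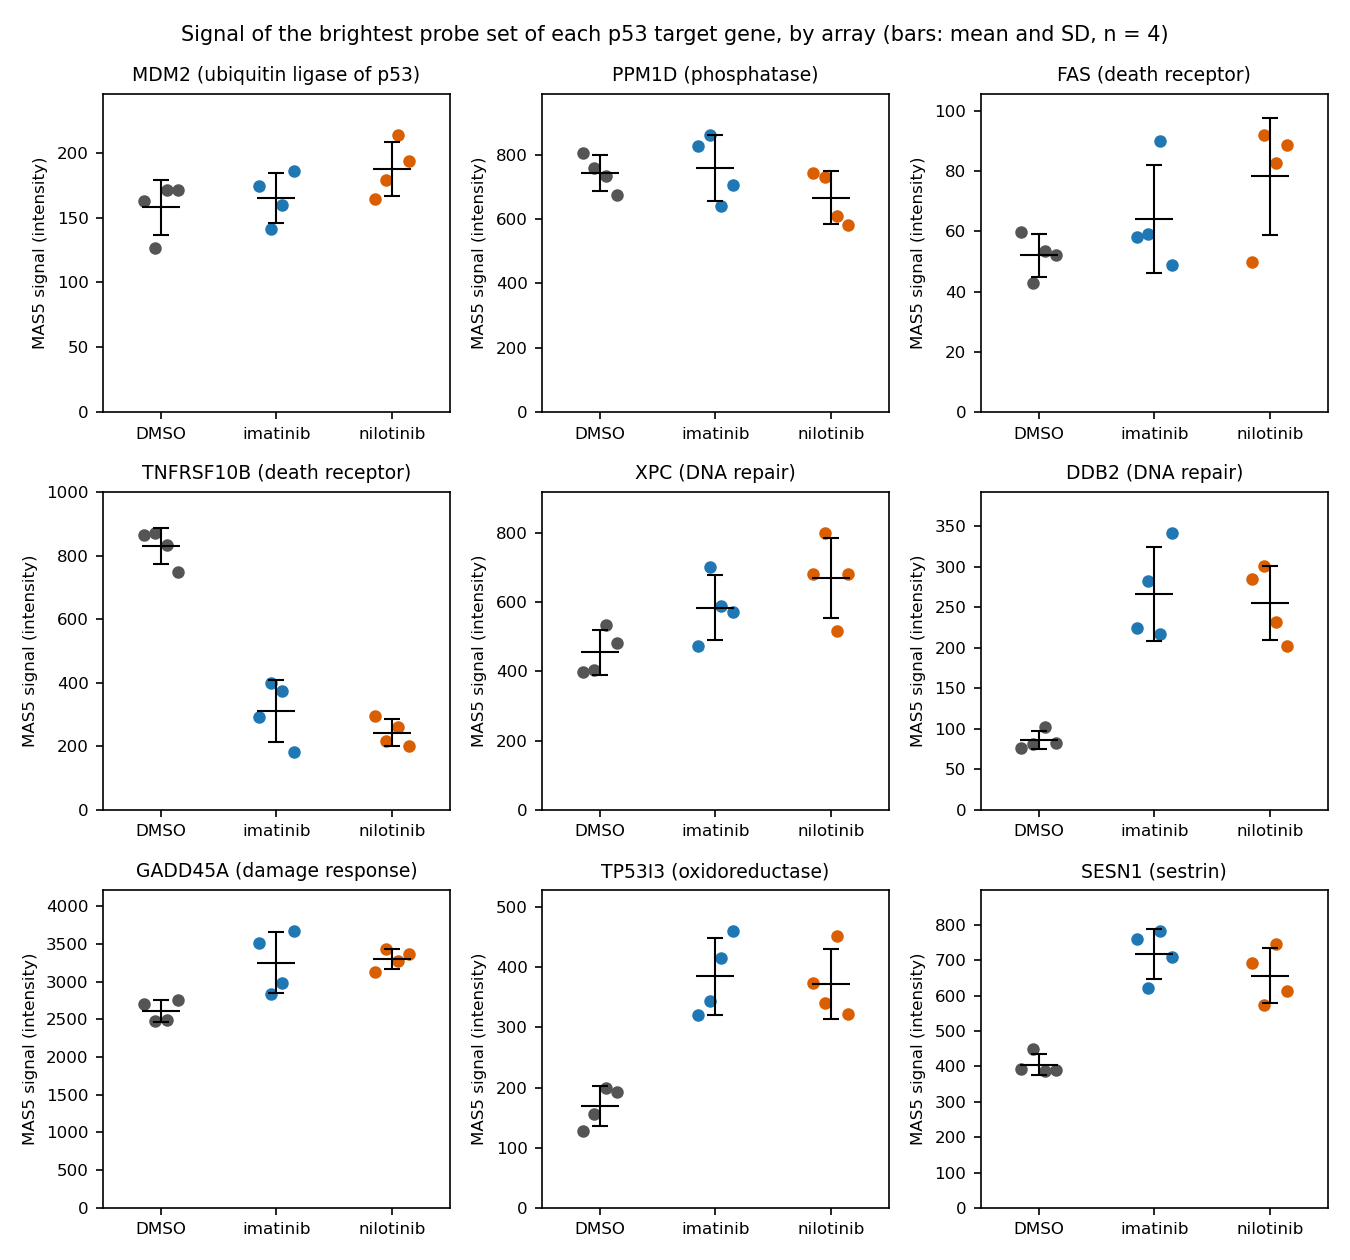
MAS5 signal (vertical axis, linear from 0) of the brightest probe set of each of the 9 genes on each array, by group, with black bars for the mean and SD of 4 arrays. The DMSO arrays lie apart from both drugs for DDB2, TP53I3, SESN1 and GADD45A, which are higher with drug, and for TNFRSF10B, which is lower. The groups overlap for MDM2, PPM1D, FAS and XPC.

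The arrays differed in more than these genes. Median signals ran from 117 to 121 on DMSO arrays, from 135 to 155 on imatinib arrays and from 166 to 194 on nilotinib arrays, although the trimmed mean was close to 500 on every array. Dim probe sets were shifted upward as a class, with a median log2 difference of 0.19 with imatinib and 0.56 with nilotinib, and 2.67% and 24.3% of them were called higher. A sign of RNA quality, actin control signal at the 3' end over that at the 5' end, was 3.72 to 5.49 on nilotinib arrays 1 and 2 and imatinib arrays 5 and 6, and 3.34 or less on the others. Centring each array on its median moved the median of all probe sets from 0.13 to -0.10 with imatinib and from 0.34 to -0.18 with nilotinib. Calls that this scaling ends or adds for the 9 genes are given beside them. Of the K562 and erythroid markers, 6 of 8 were measured and none was dim, with a summed signal of 25419 to 30054 with DMSO and 52715 to 66934 with the drugs. The markers of fibroblasts summed to 375 to 670, 505 to 767 and 869 to 1063 with DMSO, imatinib and nilotinib, and their part in the results was not tested. Lymphocyte markers summed to 329 to 832 over all arrays, and markers of monocytes and granulocytes to 2821 to 4107.

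The inhibitors of p53 come first, because MDM2 is a target often used to read p53 activity. The MDM2 probe set 217542_at had signals of 163, 127, 172 and 171 on DMSO arrays 9 to 12, 175, 141, 160 and 186 on imatinib arrays 5 to 8, and 164, 179, 214 and 194 on nilotinib arrays 1 to 4. The 3 groups overlapped. The log2 difference was 0.06 with imatinib (95% interval -0.39 to 0.51, limma adjusted p = 0.886) and 0.23 with nilotinib (-0.22 to 0.68, adjusted p = 0.393). With nilotinib the value turned to -0.24 under quantile normalization and -0.29 under median centring, again with no call, so MDM2 has no direction here. The other 4 MDM2 probe sets were dim, with group means from 7.69 to 59.1, and none was called for either drug. Its promoter element shown above differs from the consensus at 2 of 20 bases.

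PPM1D encodes the phosphatase WIP1, which switches the damage response off. Its signals were 807, 758, 733 and 674 with DMSO, 828, 861, 641 and 706 with imatinib and 744, 731, 611 and 583 with nilotinib, in the same order of arrays. Within each drug the arrays of high actin ratio, the first pair listed, had the higher PPM1D signals. The log2 difference was 0.02 ± 0.11 (SE) with imatinib (adjusted p = 0.922) and -0.16 ± 0.11 with nilotinib (adjusted p = 0.271). With those 4 arrays left out the nilotinib value was -0.31 (adjusted p = 0.0387), a call, and with median centring it was -0.68 (adjusted p = 0.000564). Of 25 alternatives the other 23 made no call, with -0.21 under quantile normalization and -0.18 under cyclic loess. PPM1G, a phosphatase of the same family, fell with both drugs, from 923 ± 105 with DMSO to 483 ± 102 and 428 ± 87.2 (SD, n = 4 each), log2 differences of -0.93 and -1.10. Of its other relatives, PPM1A had 0.18 with imatinib, not called. It rose with nilotinib by 1 of its 2 probe sets (0.53, limma adjusted p = 0.000496), a call that median centring ended. By its brightest probe set PPM1B had -0.13 and -0.14 and was not called, and median centring called it lower with both drugs (-0.36 and -0.66). With imatinib 1 of the 2 PPM1B probe sets was called lower (-0.39).

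The death receptors FAS and TNFRSF10B carry signals from outside the cell to caspase-8. TNFRSF10B, which encodes the TRAIL receptor DR5, was the only one of the 9 genes called lower. Its probe set 209295_at read 866, 872, 835 and 750 with DMSO, 294, 399, 375 and 182 with imatinib, and 294, 217, 260 and 201 with nilotinib. No drug array reached the lowest DMSO array. Means were 313 ± 97.7 under imatinib and 243 ± 42.4 under nilotinib against 831 ± 56.1 in the controls (SD, n = 4). The log2 difference was -1.42 ± 0.19 (SE, limma adjusted p = 2.70e-05) and -1.72 ± 0.19 (adjusted p = 1.75e-06). Of all 11963 genes, 115 had a more negative log2 difference with imatinib and 101 with nilotinib.

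The other TNFRSF10B probe sets, 210405_x_at and 209294_x_at, were dim and not called, with log2 differences from -0.63 to 0.48. The suffix _x_at marks probe sets that can bind other transcripts too. TNFRSF10B is also a known target of the stress factor CHOP. The drop held under every alternative tried, between -1.64 and -1.20 with imatinib and between -2.24 and -1.55 with nilotinib.

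FAS encodes the receptor of FAS ligand, and all 4 of its probe sets were dim. The brightest, 204780_s_at, read 59.9, 42.7, 53.4 and 52.1 with DMSO, 58.2, 59.2, 90.2 and 48.9 with imatinib and 49.8, 92.1, 82.7 and 88.9 with nilotinib. The groups overlapped, and the log2 differences of 0.22 ± 0.32 (SE) and 0.45 ± 0.32 were not called (adjusted p = 0.712 and 0.265). With nilotinib the value turned to -0.14 under quantile normalization, -0.16 under cyclic loess and -0.07 under median centring, none called. Probe set 216252_x_at was called higher with nilotinib by 1.04 ± 0.40 (adjusted p = 0.0433), but its groups overlapped, nilotinib array 1 at 28.1 lying below 2 DMSO arrays (39.5 and 34.1). That call was lost under 13 of 22 alternatives. Probe set 215719_x_at had -0.35 in the same comparison and was called lower under quantile normalization, median centring and cyclic loess (-0.90, -0.87 and -0.90), so the FAS probe sets point both ways.

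**Figure D2:**
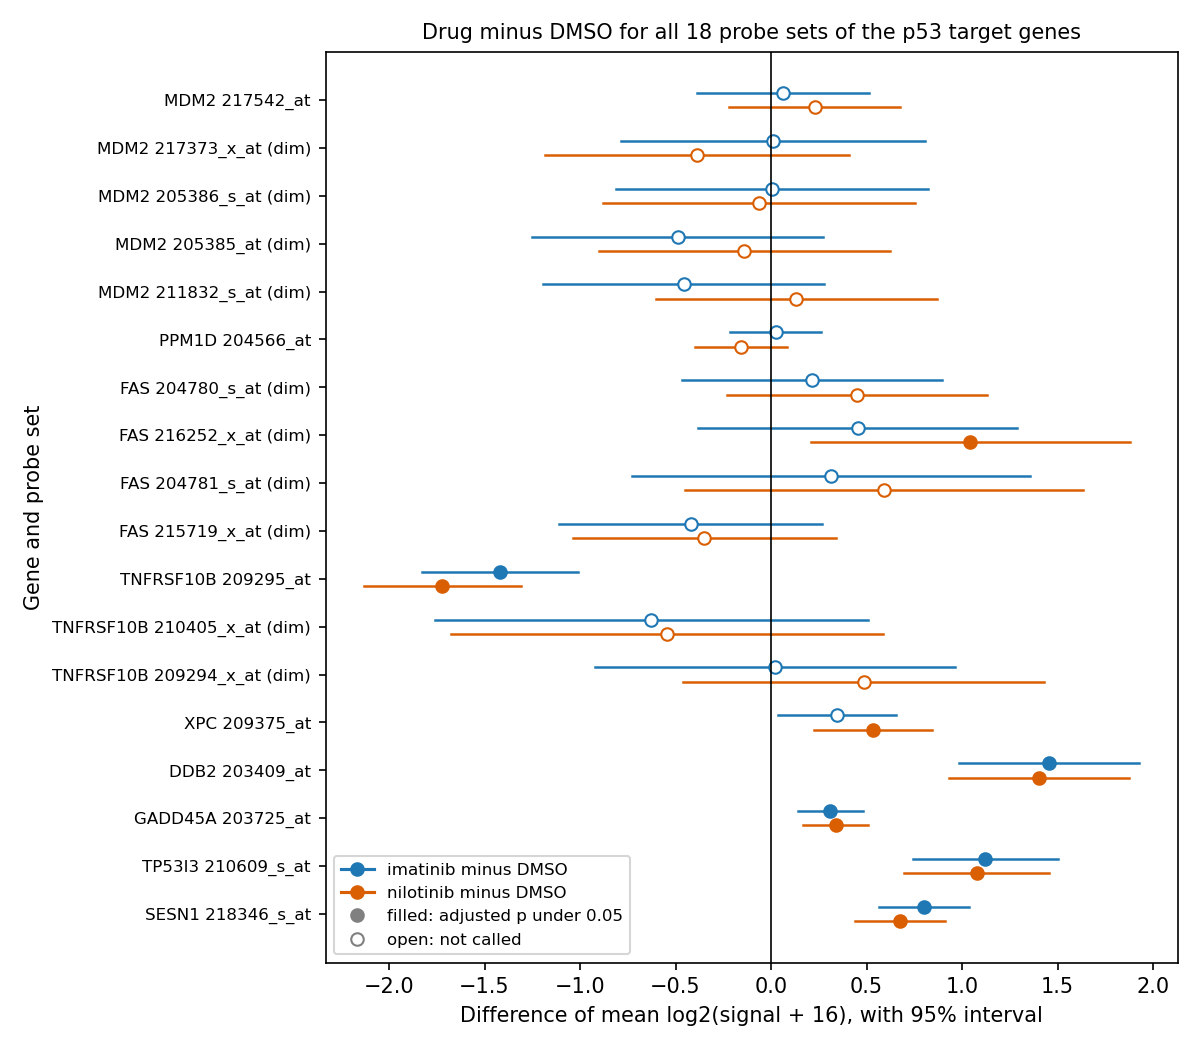
Difference between drug and DMSO in mean log2(signal + 16) (horizontal axis) with its 95% interval for all 18 probe sets, in blue for imatinib and orange for nilotinib, filled where called. The called values are those of TNFRSF10B 209295_at on the left and of DDB2, TP53I3, SESN1, GADD45A, and with nilotinib XPC and FAS 216252_x_at, on the right. Dim probe sets have the wide intervals.

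Among the DNA repair genes, DDB2 moved most. DDB2 and XPC are damage sensors that begin nucleotide excision repair across the genome. DDB2 read 76.9, 81.9, 102 and 82.5 with DMSO, 224, 283, 217 and 342 with imatinib and 285, 301, 232 and 202 with nilotinib. The lowest drug array was well above the highest DMSO array. The mean rose 3.10-fold with imatinib and 2.97-fold with nilotinib, a log2 difference of 1.45 ± 0.22 (SE, limma adjusted p = 8.95e-05) and 1.40 ± 0.22 (adjusted p = 8.33e-05). The p53 element of DDB2 printed above had 0 mismatches. That of TP53I3, which also rose, had 4, and those of MDM2 and FAS had 2. Any part of these elements in the differences was not tested. The DDB2 call held under every alternative in which it was tested, with values of 1.13 to 1.61 for imatinib and 0.88 to 1.55 for nilotinib. The filter at the 60th percentile removed DDB2.

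XPC recognises distorted DNA. Its signals were 400, 405, 534 and 483 with DMSO, 473, 701, 590 and 573 with imatinib and 683, 800, 516 and 681 with nilotinib. Both drugs overlapped with DMSO, since the lowest imatinib array lay below DMSO arrays 11 and 12 and the lowest nilotinib array below DMSO array 11. XPC had 0.34 ± 0.15 with imatinib (adjusted p = 0.112), not called and 0.12 under median centring, and rose by 0.53 ± 0.15 with nilotinib (adjusted p = 0.00773). Leaving out the 4 arrays with high actin ratios ended the nilotinib call (0.38, adjusted p = 0.0724), as did median centring (0.01, adjusted p = 0.963).

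GADD45A encodes a small protein that binds PCNA and cell cycle kinases after damage. Its signals were 2708, 2474, 2498 and 2755 with DMSO, 3519, 2830, 2984 and 3671 with imatinib and 3132, 3431, 3270 and 3367 with nilotinib. No drug array overlapped with DMSO, although the rise was small, 1.25-fold and 1.26-fold. In log2 terms it was 0.31 ± 0.08 (SE, adjusted p = 0.00929) and 0.34 ± 0.08 (adjusted p = 0.00302). With median centring it was 0.08 with imatinib and turned to -0.18 with nilotinib, neither called. With nilotinib it was 0.52 under quantile normalization and 0.46 under cyclic loess, both called higher. The direction of GADD45A with nilotinib thus turned under median centring only. Its relative GADD45B rose from 72.1 ± 25.9 with DMSO to 162 ± 51.2 and 289 ± 60.5 (SD, n = 4 each), log2 differences of 1.01 and 1.82, by 1 and 3 of its 4 probe sets. With imatinib that call was lost under each of the 3 other scalings. Of 8 paralogs of the 9 genes 6 were measured, of which 1 rose and 1 fell with imatinib (median 0.26), and 3 rose and 1 fell with nilotinib (median 0.68). With nilotinib these counts were 2 and 1 under quantile normalization (median 0.30), and 1 and 2 under median centring (median 0.15). Of all 11963 genes, 13.6% were called higher and 10.8% lower with imatinib, and 30.1% and 15.4% with nilotinib. Median centring called 1229 of all 19064 probe sets higher and 5567 lower with nilotinib.

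The genes of redox and metabolic stress rose with both drugs. TP53I3, an oxidoreductase whose product is linked to reactive oxygen species, read 128, 156, 199 and 193 with DMSO, 321, 344, 415 and 460 with imatinib and 373, 340, 452 and 322 with nilotinib. No drug array fell within the DMSO range. The mean rose 2.28-fold with imatinib and 2.20-fold with nilotinib, by 1.12 ± 0.18 (SE, limma adjusted p = 0.000151) and 1.08 ± 0.18 (adjusted p = 0.000145) on the log2 scale. Median centring brought the nilotinib value to 0.55 (adjusted p = 0.0265), still a call.

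SESN1 encodes sestrin 1, which restrains the growth kinase mTORC1, and is also a known target of FOXO factors. It read 392, 448, 388 and 389 with DMSO, 759, 620, 782 and 708 with imatinib and 691, 574, 747 and 613 with nilotinib. The drug arrays stood apart from DMSO again. The rise was 1.77-fold and 1.62-fold, or 0.80 ± 0.11 (SE, adjusted p = 3.39e-05) and 0.67 ± 0.11 (adjusted p = 0.000129). With median centring the imatinib value was 0.57 and still called, and the nilotinib value was 0.15 (adjusted p = 0.404), the only alternative that ended a SESN1 call. Among all 11963 genes, 1.41% had a larger positive log2 difference than DDB2 with imatinib, 3.5% than TP53I3, 9.14% than SESN1 and 33.9% than GADD45A. With nilotinib these shares were 5.54%, 12.9%, 30.5% and 49.7%, and 38% had a larger one than XPC. The groups did not overlap for 5 of the 9 genes with either drug, where 29.1% of all genes did not overlap with imatinib and 41.9% with nilotinib.

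**Figure D3:**
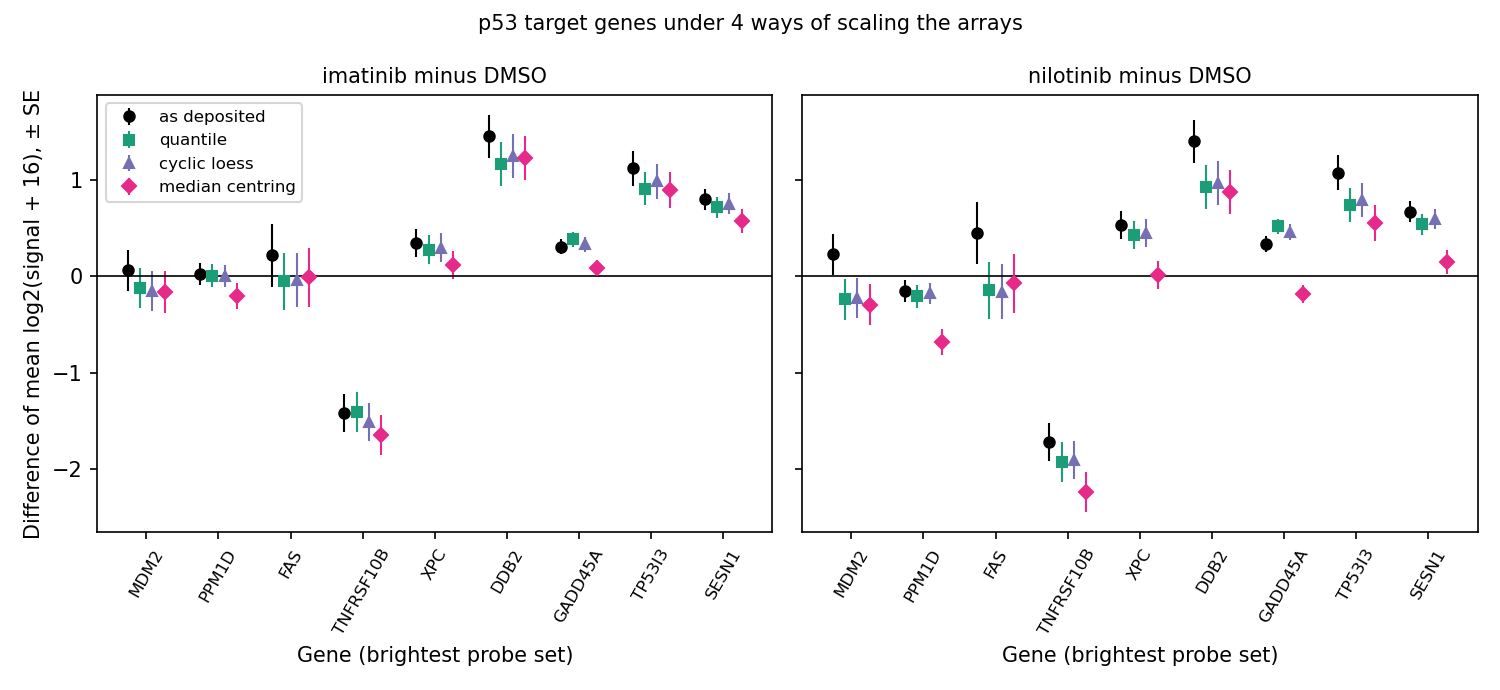
Difference between drug and DMSO in mean log2(signal + 16) ± SE for the brightest probe set of each gene, under 4 ways of scaling the arrays. TNFRSF10B stays below 0 and DDB2 and TP53I3 above 0 under all 4, and GADD45A with nilotinib falls from 0.34 to -0.18 with median centring.

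Nilotinib was also compared with imatinib directly, at doses that differed. None of the 18 probe sets was called by limma, and none had an unadjusted p under 0.05, where 6.1% of all probe sets were called. The largest log2 difference by a brightest probe set, nilotinib minus imatinib, was that of TNFRSF10B at -0.30 (95% interval -0.71 to 0.11). DDB2 had -0.05 (-0.52 to 0.42), TP53I3 -0.05 (-0.43 to 0.34), SESN1 -0.13 (-0.36 to 0.11), GADD45A 0.03 (-0.14 to 0.20) and XPC 0.19 (-0.12 to 0.50). XPC was called with 1 drug only, and its direct difference had an adjusted p of 0.437. With median centring PPM1D and SESN1 were called lower with nilotinib, at -0.48 and -0.42.

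Other genes of the pathway went both ways. Beside the counts of each list below stand the shares of all 11963 genes called. These were 13.6% higher and 10.8% lower with imatinib, and 30.1% and 15.4% with nilotinib. No list was tested against them. Of 16 genes of the p53 family and its regulators 13 were measured, of which 3 rose and 2 fell with imatinib (median 0.06), and 5 rose and 3 fell with nilotinib (median 0.26). Under median centring the counts were 1 higher and 2 lower with imatinib (median -0.16), and 2 higher and 6 lower with nilotinib (median -0.26). That scaling called 1002 of all 19064 probe sets higher and 2940 lower with imatinib, and 1229 and 5567 with nilotinib. ATM, the kinase that signals DNA breaks to p53, rose from 280 ± 24.5 with DMSO to 602 ± 44.0 and 707 ± 48.1 (SD, n = 4 each). That is 1.06 ± 0.11 (SE, limma adjusted p = 8.74e-07) and 1.29 ± 0.11 (adjusted p = 4.40e-08), with all 3 of its probe sets called higher. The kinases ATR and CHEK1, which answer stalled replication, fell, ATR with -0.55 and -0.42 and CHEK1 with -0.34 and -0.55. Each was called by 1 of its 2 probe sets with imatinib and by 2 with nilotinib. The CHEK1 call with imatinib was lost when the 4 arrays with high actin ratios were left out (-0.35, adjusted p = 0.0578). The coactivator CREBBP rose by 0.54 and 0.83, by 1 of its 2 probe sets, and with imatinib that call was lost under median centring. The other CREBBP probe set had -0.28 and -0.11 and was not called. CDKN2A, a locus known to be deleted in K562, was called higher with nilotinib by 1.11 ± 0.28, by 1 of its 3 probe sets, and quantile normalization, cyclic loess and median centring each ended that call.

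Of 43 other p53 targets 35 were measured, with 6 called higher and 10 lower under imatinib (median -0.03) and 7 higher and 8 lower under nilotinib (median 0.04). The membrane protein gene CD82 rose by 1.71 and 2.13 and the interferon-inducible TRIM22 by 1.18 and 1.83. The nuclease gene AEN, whose probe set was dim, fell (-1.75 and -2.12), as did GDF15, a stress cytokine, by 1 of its 2 probe sets (-1.70 and -1.57). ATF3, a stress transcription factor, fell (-1.68 and -0.95). TIGAR, a regulator of glycolysis, fell with imatinib (-1.58) and had -0.86 with nilotinib (adjusted p = 0.0719), which each of the 3 other scalings called lower. The imatinib calls of CD82 and AEN were lost when the 4 arrays with high actin ratios were left out (adjusted p = 0.0504 and 0.085). CDKN1A, the p21 gene and the best known arrest gene downstream of p53, is named for that role. It had -0.95 ± 0.34 (SE, adjusted p = 0.0548) with imatinib and 0.15 ± 0.34 (adjusted p = 0.737) with nilotinib. With imatinib it was called lower under quantile normalization, cyclic loess and median centring. Under quantile normalization the list's counts were 6 higher and 12 lower with imatinib, and 4 higher and 10 lower with nilotinib. Under median centring they were 2 higher and 13 lower (median -0.26), and 2 higher and 17 lower (median -0.48). Of all 19064 probe sets, median centring called 1002 higher and 2940 lower with imatinib, and 1229 and 5567 with nilotinib. Quantile normalization called 1754 higher and 1742 lower with imatinib, and 2584 and 2965 with nilotinib.

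Of 19 measured partners of XPC and DDB2 in nucleotide excision repair, 5 rose and 1 fell with imatinib (median 0.13), and 6 rose and 3 fell with nilotinib (median -0.01). With nilotinib the counts were 3 higher and 3 lower under quantile normalization, and 0 higher and 10 lower under median centring (median -0.54). In that comparison median centring called 1229 of all 19064 probe sets higher and 5567 lower. ERCC1, a subunit of the nuclease that cuts beside the lesion, rose by 0.63 and 0.57, by 1 of its 2 probe sets. With nilotinib it had 0.05 and no call under median centring. The single-strand binding protein gene RPA1 rose by 0.43 and 0.31, a direction that turned to -0.22, a call, with nilotinib under median centring. GTF2H1, a subunit of the helicase complex TFIIH, fell (-0.47 and -0.56). DDB1, the direct partner of DDB2, had 0.16 and -0.15 and was not called with either drug, and with nilotinib it was called lower under median centring (-0.67, adjusted p = 0.000664).

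Of 14 death receptor partners measured, none rose and 4 fell with imatinib (median -0.05), and 3 rose and 4 fell with nilotinib (median -0.10). With nilotinib the counts were 1 higher and 5 lower under quantile normalization and cyclic loess, and 0 higher and 9 lower under median centring (median -0.62). In that comparison 1229 of all 19064 probe sets were called higher and 5567 lower under median centring. BID, which links caspase-8 to mitochondria, fell (-0.81 and -1.17), as did the TNF receptor gene TNFRSF1A (-1.11 and -0.84). With imatinib BID was called by 1 of its 2 probe sets. CFLAR, which encodes the caspase-8 inhibitor FLIP, fell by its brightest probe set (-1.80 and -1.94). Its 11 probe sets disagreed, with 3 called lower under imatinib, and 2 lower and 3 higher under nilotinib. The ligand genes FASLG and TNFSF10 had 0.28 and -0.04 with imatinib, not called. By its brightest probe set TNFSF10 had -0.11 with nilotinib, not called, while 1 of its 3 probe sets was called lower. Median centring turned the value of the brightest into a call (-0.63, adjusted p = 0.000514). FASLG was called higher with nilotinib by 1.17, by 1 of its 2 probe sets, a call lost under quantile normalization, cyclic loess and median centring.

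**Figure D4:**
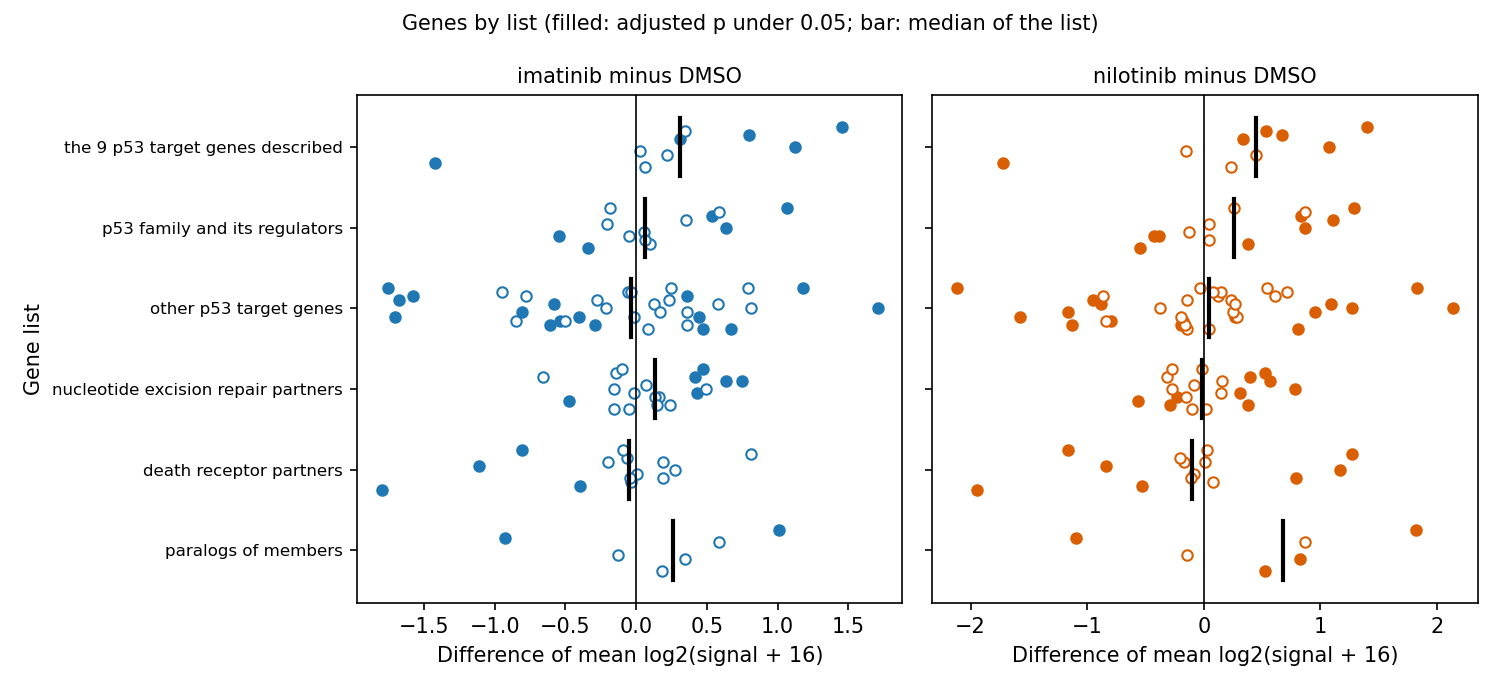
Difference between drug and DMSO in mean log2(signal + 16) (horizontal axis) for the brightest probe set of each gene, by list, with imatinib on the left and nilotinib on the right. Filled points were called, and black bars are list medians. Each list has called genes on both sides of 0 except the death receptor partners with imatinib, where 4 were called lower and none higher. A gene in more than 1 list is drawn in each.

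For the 3 member probe sets that changed most, the probe sets of other genes with the most similar pattern over the 12 arrays were sought among 11695 that were not dim. TNFRSF10B was closest to NIP7 (Pearson r = 0.990), SSBP2 (0.981) and ECPAS (0.970). DDB2 was closest to DLK1 (0.981), GAS2L1 (0.972) and KANK2 (0.972), and TP53I3 to FLOT2 (0.978), EMP2 (0.967) and CYP1A1 (0.962). The 12 arrays share 3 groups, so these values mostly describe the step between DMSO and the drugs.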

How the data were processed

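The authors deposited 1 linear intensity per probe set and array, a MAS5 signal per the submitters' processing notes, which name no version. The arrays had been scaled to a trimmed mean near 500 and were used as deposited. Probe sets were named through the platform annotation, with symbols updated by gene identifier: 19064 named 1 gene, 1043 several and 2108 none, and 62 were controls. The 19064 were fitted together, without a filter, as log2(signal + 16) with limma 3.58.1 in R 4.3.3 (1 mean per group, variance trend, 9 residual degrees of freedom). The members and lists were chosen with earlier results of these data known. All members are named. In other lists some called genes are named, not always those with the largest difference. Partners or relatives of members are named too, and CDKN1A and TP73 were added afterwards. Called genes not described include HIPK2 (0.64 with imatinib and 0.87 with nilotinib), ERCC6 (0.79 with nilotinib), LIG1 (0.75 with imatinib) and the dim TNFRSF10C (1.27 with nilotinib). The fit was tested on simulated data. Detection calls were not used, and the number of arrays limits precision (median SE 0.26). Alternatives were other pseudocounts, filters, scalings and variance models, array weights, 2-group fits, and arrays left out. Figures used matplotlib 3.10.9.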

Additional observations from a re-analysis of the deposited data

Results flagged for a closer look

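In 5 of 54 groups of 4 arrays checked for the 18 probe sets, 1 array stood apart from the other 3, and chance gives about 1 in 20. MDM2 217542_at on DMSO array 10 read 126.7, below the others at 163.3 to 171.6. MDM2 205386_s_at read 99.19 on imatinib array 6 against 33.77 to 39.52, and MDM2 211832_s_at read 53.88 on nilotinib array 3 against 11.71 to 13.07. TNFRSF10B 209294_x_at read 12.47 on DMSO array 12 against 48.03 to 56.84. SESN1 on DMSO array 10 read 447.9 against 388.1 to 392.5, still below every drug array. The SESN1 calls with both drugs held when DMSO array 10 was left out.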

How the results depend on the processing

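No paired analysis was possible because the sample numbers in the titles are not shared between groups. With median centring, nilotinib against DMSO had 2 member probe sets higher and 3 lower, and 2 genes higher and 2 lower by the brightest probe set, and GADD45A turned to -0.18. Of all 19064 probe sets, 1229 were then called higher and 5567 lower in that comparison. Under that scaling nilotinib against imatinib had 2 member probe sets lower, which are 2 genes, and 3127 of all probe sets called. Member probe sets lower with nilotinib numbered 2 under quantile normalization, under cyclic loess, and with the 4 arrays of highest actin ratio left out (2 genes in the last case). All probe sets called with nilotinib against DMSO numbered 4800 with the filter at the 60th percentile and 4666 with 1 probe set per gene, where fewer were tested. Nilotinib against imatinib had 1162 calls, and 488 without a variance trend, 766 with array weights, 686 with 2-group fits, 362 without those 4 arrays, and 581 to 1178 with 1 array left out (740 without nilotinib array 4 and 581 without imatinib array 6). With 1 array left out, member calls with imatinib stayed at 4 higher and 1 lower, and with nilotinib at 5 to 6 probe sets higher and 1 lower, FAS 216252_x_at being the one lost, without any 1 of nilotinib arrays 2 to 4 or DMSO arrays 9 to 12. All calls then numbered 3366 to 4225 with imatinib and 6720 to 7930 with nilotinib. Of all calls against DMSO, 56.3% (imatinib) and 68% (nilotinib) were higher, 50.2% and 46.6% under quantile normalization, 47.7% and 46.4% under cyclic loess, and 25.4% and 18.1% under median centring. GADD45A with imatinib was not called without a variance trend or with median centring. Dim probe sets, 10 of the 18, limit what can be said of FAS and of most MDM2 probe sets.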
